A study of Rattus norvegicus with 16 samples.

Results

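The genes of base excision and single-strand break repair were followed in the ovaries of 16 female rats, as a listed set of 32 genes among the 20227 genes tested on the array. The set was given as a list of gene names, and each gene was read by its kept probe of highest mean signal. All 32 genes had a probe on the array. Of these, 30 gave a signal above background often enough to be tested, and the remaining genes, Neil2 and Pole4, were well above background on none of the 16 arrays. The rats were of the Jcl:SD stock, a Sprague-Dawley line, in 4 groups of 4 animals. The groups were wild-type (WT) rats given vehicle, WT rats given olaparib, BRCA1+/- rats given vehicle and BRCA1+/- rats given olaparib. Olaparib, an inhibitor of the poly(ADP-ribose) polymerases that detect DNA single-strand breaks, was given by subcutaneous injection of 50 mg/kg, repeated daily over 14 days in rats that were 3 weeks old at the start. Ovaries of these rats were collected 24 h after the last dose. The sample labels give the age and the time of collection for the olaparib rats only. The BRCA1+/- rats are heterozygous for a change in Brca1, a gene of homologous recombination. The kind of mutation, the composition of the vehicle and the schedule of its injection are not given in the sources used here.

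Base excision repair removes a single damaged base. A DNA glycosylase cuts the base off its sugar, an endonuclease opens the strand at the abasic site, end-processing enzymes clean the ends, and the gap is filled and sealed. The short-patch route uses Polb, the gap-filling polymerase beta, with the scaffold Xrcc1 and the ligase Lig3. The long-patch route uses replication enzymes, among them the flap endonuclease Fen1, the ligase Lig1 and the polymerases delta and epsilon, so that several members also serve chromosome replication. Growing follicles of the young ovary hold many dividing granulosa cells, and replication genes are expressed mainly in dividing cells. In whole-ovary RNA, fewer cells of a type and less RNA per cell cannot be told apart.

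The promoters of 5 members are shown first, because the values of these genes moved with the proliferation genes of the ovary or were among those with the smallest p-values below. They are not all such members, and Pold1, Pold2 and Mutyh are among those not shown. The sequences are from RefSeq, build GRCr8, and each runs 5′ to 3′ along the gene from 250 bases before to 50 bases after the transcript start that the RefSeq table lists. Capitals mark an E2F motif, bound by factors that switch on replication genes, or a CHR motif, a short element of cell cycle promoters. They lie at chr12:52053613-52053912 (minus strand) for Pole, chr1:83242920-83243219 (plus strand) for Lig1, chr6:93435312-93435611 (minus strand) for Pole2, chr6:124892571-124892870 (plus strand) for Tdp1 and chr1:216274347-216274646 (minus strand) for Fen1.
Pole: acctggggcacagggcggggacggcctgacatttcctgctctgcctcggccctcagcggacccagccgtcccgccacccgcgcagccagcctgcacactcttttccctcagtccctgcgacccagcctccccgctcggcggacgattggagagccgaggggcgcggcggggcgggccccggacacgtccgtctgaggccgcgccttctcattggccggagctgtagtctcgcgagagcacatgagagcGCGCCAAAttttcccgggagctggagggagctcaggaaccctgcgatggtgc
Lig1: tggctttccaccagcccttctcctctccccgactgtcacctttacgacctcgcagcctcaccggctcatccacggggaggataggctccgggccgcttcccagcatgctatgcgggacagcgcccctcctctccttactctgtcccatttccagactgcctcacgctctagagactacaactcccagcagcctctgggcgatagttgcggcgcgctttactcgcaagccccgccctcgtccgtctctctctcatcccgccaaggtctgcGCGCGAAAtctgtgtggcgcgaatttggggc
Pole2: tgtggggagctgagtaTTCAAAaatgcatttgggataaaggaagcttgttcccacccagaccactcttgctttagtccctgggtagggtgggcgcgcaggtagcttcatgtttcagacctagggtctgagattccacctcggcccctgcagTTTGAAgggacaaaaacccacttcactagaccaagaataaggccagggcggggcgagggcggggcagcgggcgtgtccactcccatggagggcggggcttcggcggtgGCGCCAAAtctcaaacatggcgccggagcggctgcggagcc
Tdp1: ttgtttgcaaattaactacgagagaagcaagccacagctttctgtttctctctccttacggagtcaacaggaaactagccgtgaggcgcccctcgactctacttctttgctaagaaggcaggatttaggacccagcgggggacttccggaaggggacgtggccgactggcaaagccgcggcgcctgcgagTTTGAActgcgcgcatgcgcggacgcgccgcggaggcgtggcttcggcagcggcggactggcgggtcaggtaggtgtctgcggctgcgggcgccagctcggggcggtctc
Fen1: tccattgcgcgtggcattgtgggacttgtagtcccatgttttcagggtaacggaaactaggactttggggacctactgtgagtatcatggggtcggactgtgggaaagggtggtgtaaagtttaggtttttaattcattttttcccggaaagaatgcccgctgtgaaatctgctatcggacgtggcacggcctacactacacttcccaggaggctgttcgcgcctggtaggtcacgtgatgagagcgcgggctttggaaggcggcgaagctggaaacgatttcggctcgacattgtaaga

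The E2F motif was searched in the forms TTTGGCGC, TTTCGCGC, TTTCCCGC and TTTGCCGC, on both strands. RefSeq promoters were at hand for 27 of the 32 members, and 7 of the 27 (25.9%) held at least 1 of these forms, against 2.14% of all 33469 promoters in the table. The 7 were Ung, Nthl1, Lig1, Pold3, Pole, Pole2 and Pole4. The Pole form began at base 249 of its window, the Pole2 form at base 260 and the Lig1 form at base 270, all close to the transcript start. Fen1 and Tdp1 held none of the forms. Pold1, Pold2 and Mutyh, of small p below but not shown, held none of them either, nor the CHR motif. The CHR motif TTTGAA was present in 4 of 27 members (14.8%), namely Ung, Tdp1, Xrcc1 and Pole2, against 18.3% of all promoters. The letters CCAAT were in 14 of 27 (51.9%) against 37.5%, and the GC box GGGCGG was in 15 of 27 (55.6%) against 33.1%. The table lists 1 transcript start a gene, and for 5 of the 27 members it was also the outermost start of the gene in the RefSeq gene table. The shares given beside the members are over all promoters of the table, not over those of the 20227 genes tested, so the sets are unlike. A match is a string of letters and no measured binding.

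The probes that read out Pole, Pold1 and Xrcc1 are shown because each lies across an exon junction of its gene, so that spliced transcript is what it can bind over its full length. Their positions in rat build rn4, as the array files give them, are chr12:46494396-46494586 on the minus strand for Pole (transcript NM_001107152, from base 6161), chr1:95010792-95011164 on the minus strand for Pold1 (NM_021662, from base 3188) and chr1:79858972-79859947 on the plus strand for Xrcc1 (NM_053435, from base 1765). These spans of 191, 373 and 976 bases are longer than the 60 bases of a probe. Whether a probe lies in coding or untranslated exon sequence was not annotated here.
Pole probe: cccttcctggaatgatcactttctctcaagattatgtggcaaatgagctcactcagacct
Pold1 probe: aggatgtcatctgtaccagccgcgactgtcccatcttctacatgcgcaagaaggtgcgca
Xrcc1 probe: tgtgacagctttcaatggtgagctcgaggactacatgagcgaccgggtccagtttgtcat

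The log2 signal used throughout is the log2 processed intensity of a gene's probe minus the 75th percentile of its array. It compares arrays for 1 gene, and levels of different genes are not compared, since probes differ in how they bind. Fits used limma over all 16 arrays, and a gene was called where its p-value, adjusted over the 20227 genes by the Benjamini-Hochberg method, was under 0.05. Errors are SD over 4 rats for levels and standard errors (SE) for differences. The series' design text gives 8 rats and 8 arrays of each genotype, and each array is taken as 1 rat.

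Facts of all arrays bear on the members. Processed signals had a 75th percentile of 202 to 566 per array, and the share of probes well above background was 55.5% to 60.7%. Markers of ovary cells were detected, with 8 of 9 granulosa genes, 6 of 6 theca and steroid genes and 8 of 9 tested oocyte genes well above background on all 16 arrays. Slide 1 held the first 2 rats of each group and slide 2 the others, and each group had its own column of positions on both slides, so column position and group cannot be told apart. High levels of oviduct genes were found on 6 arrays (mean log2 deviation, called the oviduct score, of 1.17 to 3.41, against -1.97 to -1.01 on the other 10 arrays). These were 2 of 4 in each of the WT olaparib, BRCA1+/- vehicle and BRCA1+/- olaparib groups and 0 of 4 in the WT vehicle group. In both BRCA1+/- groups they were the arrays of slide 2, so slide and oviduct score cannot be told apart there. Of the 14 oviduct genes tested, 11 were well above background on all 16 arrays. Brca1 itself had a log2 signal of -0.44 ± 0.36 in WT vehicle ovaries and -1.12 ± 0.31 in BRCA1+/- vehicle ovaries (SD, n = 4), with overlapping ranges of -0.81 to -0.11 and -1.44 to -0.78.

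No member was called in any of the 5 comparisons, and neither was any of the 20227 genes (0% called in each). The counts below therefore use an unadjusted p under 0.05, which ranks genes and makes no call. The lowest adjusted p of a member was 0.96 for olaparib in WT ovaries, 1.0 for olaparib in BRCA1+/- ovaries, 0.86 for genotype with vehicle, 1.0 for genotype with olaparib and 0.97 for the interaction of genotype and olaparib.

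**Figure D1:**
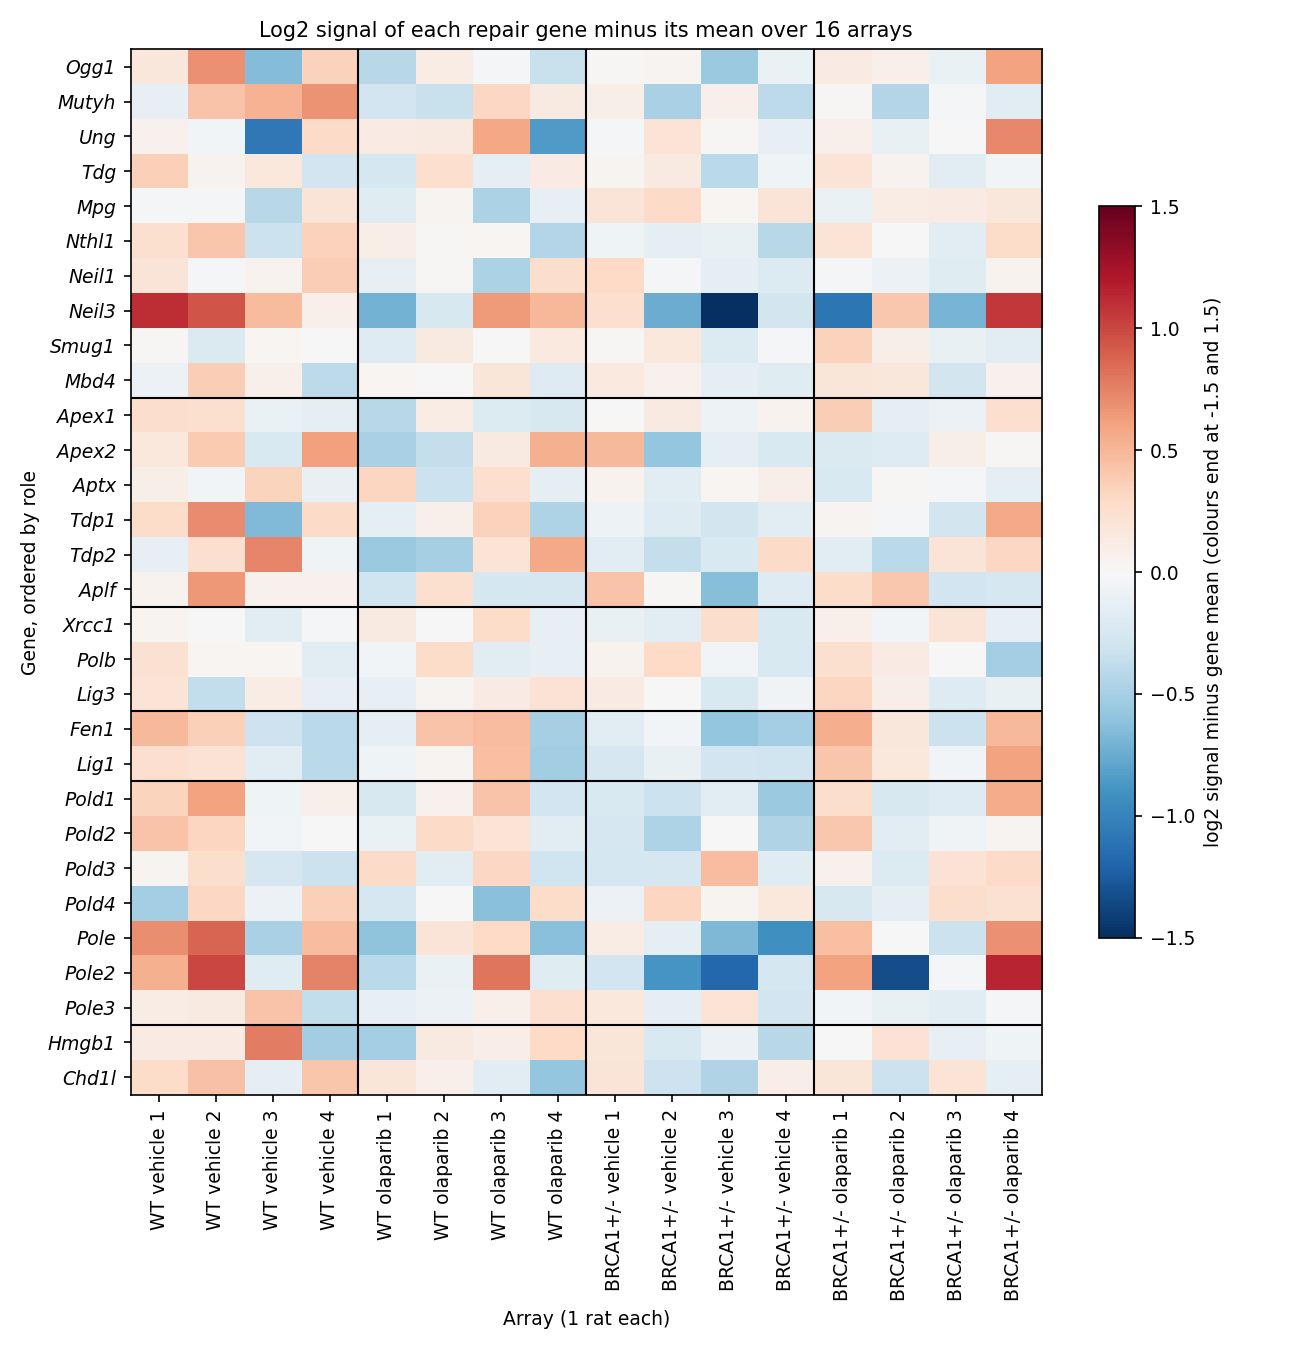
Log2 signal of each of the 30 tested repair genes (rows, ordered by role) minus its mean over the arrays, for 16 arrays of 1 rat each (columns, 4 per group); red is above and blue below the gene's mean. Pole, Pole2 and Neil3 vary most between arrays. Xrcc1, Polb and Lig3 vary little, as do members of other roles such as Smug1 and Aptx.

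The comparison with the most members at unadjusted p under 0.05 was BRCA1+/- against WT with vehicle. There, 6 of the 30 members (20%) had such a p, all 6 with the lower signal in BRCA1+/- ovaries, against 5.5% of all genes and 3.56% of all genes in the lower direction. They were 4 subunits of the replicative polymerases, Pole2, Pold2, Pold1 and Pole, and the glycosylases Neil3 and Mutyh. Neil3 passed the filter on dim probes only through the WT vehicle group, the higher side of this comparison, so its place among the 6 supports nothing. Without it, 5 of 29 members (17.2%) had such a p. None of the 6 was called, with an adjusted p of 0.86 for each. Over all 30 members the median difference was -0.24, against -0.06 over all genes, and 24 of 30 (80%) had the lower value in BRCA1+/- ovaries, as did 57.8% of all genes. With normexp background correction 4 of 30 members had an unadjusted p under 0.05, and Pole differed by -0.48, Pold1 by -0.54, Pold2 by -0.46 and Mutyh by -0.49.

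Scores of other cell types, each the mean centred log2 signal of a marker list, overlapped between the 2 vehicle groups. The T and NK cell score ran from -0.54 to 0.20 in WT and from 0.09 to 0.52 in BRCA1+/- vehicle ovaries (4 of 6 markers tested), the endothelium score from -0.27 to 0.46 and from -0.32 to 0.54 (5 of 5), and the red blood cell score from -0.07 to 0.87 and from 0.28 to 1.06 (7 of 7). The adipocyte score ran from -2.97 to 0.00 and from -0.95 to 1.39, with 5 of 7 markers tested and 1 of them well above background on all 16 arrays. Their part in the differences of the members was not tested.

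Pole, the catalytic subunit of polymerase epsilon, which copies the leading strand, had log2 signals of -2.02, -1.85, -3.20 and -2.25 in the WT vehicle ovaries and of -2.60, -2.85, -3.39 and -3.64 in the BRCA1+/- vehicle ovaries. The third WT rat lay among the BRCA1+/- values and the other WT rats above them all. The difference was -0.79 ± 0.35 (SE; 95% interval -1.53 to -0.05; unadjusted p = 0.038 and adjusted p = 0.86 by limma), a 1.73-fold lower signal. A second kept Pole probe, well above background on 6 of 16 arrays, gave -0.83. Another, well above background on 5 arrays and not kept, gave -0.14. Both of these further probes are dim, and neither value is taken as support.

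Pold1, the catalytic subunit of polymerase delta, was at 2.93, 3.19, 2.52 and 2.66 in WT vehicle ovaries and at 2.37, 2.27, 2.43 and 2.04 in BRCA1+/- vehicle ovaries. The groups did not overlap (exact two-sided permutation p = 0.029, the smallest that 4 against 4 can give). The difference was -0.55 ± 0.22 (unadjusted p = 0.027, adjusted p = 0.86 by limma). Its accessory subunit Pold2 was at 3.30, 3.20, 2.84 and 2.88 in WT vehicle ovaries against 2.63, 2.42, 2.88 and 2.43, so that 1 BRCA1+/- rat reached the WT range, and the difference was -0.47 ± 0.18.

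Pole2, the second subunit of polymerase epsilon, was at -3.93, -3.46, -4.64 and -3.71 in WT vehicle ovaries and at -4.75, -5.35, -5.64 and -4.73 in BRCA1+/- vehicle ovaries. These groups did not overlap either. Pole2 was well above background on 14 of 16 arrays, 4 of 4 and 3 of 4 in these groups, and its difference of -1.18 ± 0.46 rests on dim signals. With normexp background correction it was -0.35. Pold1 and Pole2 were the only members without overlap between these groups, 2 of 30 tested, where 3.44% of all genes did not overlap. For olaparib in WT ovaries the count was 0 of 30 (1.16% of all genes), for olaparib in BRCA1+/- ovaries 1 of 30 (1.11%), and for genotype with olaparib 0 of 30 (0.583%).

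Of the glycosylases, Neil3, which acts on oxidised bases and is known mainly from dividing cells, was well above background on 8 of 16 arrays, the fewest of the tested members, with 3, 2, 1 and 2 of 4 in the WT vehicle, WT olaparib, BRCA1+/- vehicle and BRCA1+/- olaparib groups, so most of its BRCA1+/- vehicle values are not well above background and the size of its difference was not measured. The mean difference in log2 signal was -1.27 as computed and -0.26 with normexp background correction. Its values were -4.16, -4.32, -4.80 and -5.19 in WT vehicle ovaries and -5.02, -6.02, -6.97 and -5.55 in BRCA1+/- vehicle ovaries, overlapping by 1 rat on each side. Mutyh, which removes adenine paired with oxidised guanine, was at 0.07, 0.62, 0.72 and 0.87 against 0.29, -0.29, 0.28 and -0.20. The first WT rat lay within the BRCA1+/- range, and the difference was -0.55 ± 0.22. A second Mutyh probe, shifted by 1 base and therefore no independent reading, gave -0.43.

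These differences were also taken within each slide, with 2 arrays a group and no test. Pole differed by -0.79 within slide 1 and by -0.79 within slide 2, Pole2 by -1.35 and -1.01, Pold1 by -0.74 and -0.36, Pold2 by -0.73 and -0.20, and Mutyh by -0.34 and -0.75. All 5 had the lower value in BRCA1+/- ovaries on both slides. The slide 2 values set BRCA1+/- arrays of high oviduct score against WT arrays of low score. Without the 6 arrays of high oviduct score, which leaves 4 WT and 2 BRCA1+/- vehicle arrays, the differences were -0.40 for Pole, -1.11 for Pole2, -0.51 for Pold1, -0.53 for Pold2 and -0.57 for Mutyh, and 0 of 30 members had an unadjusted p under 0.05. The count was also 0 without WT vehicle replicate 2, 2 without WT vehicle replicate 1 or without BRCA1+/- vehicle replicate 4, 3 without BRCA1+/- vehicle replicate 3 and 9 without WT vehicle replicate 3.

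**Figure D2:**
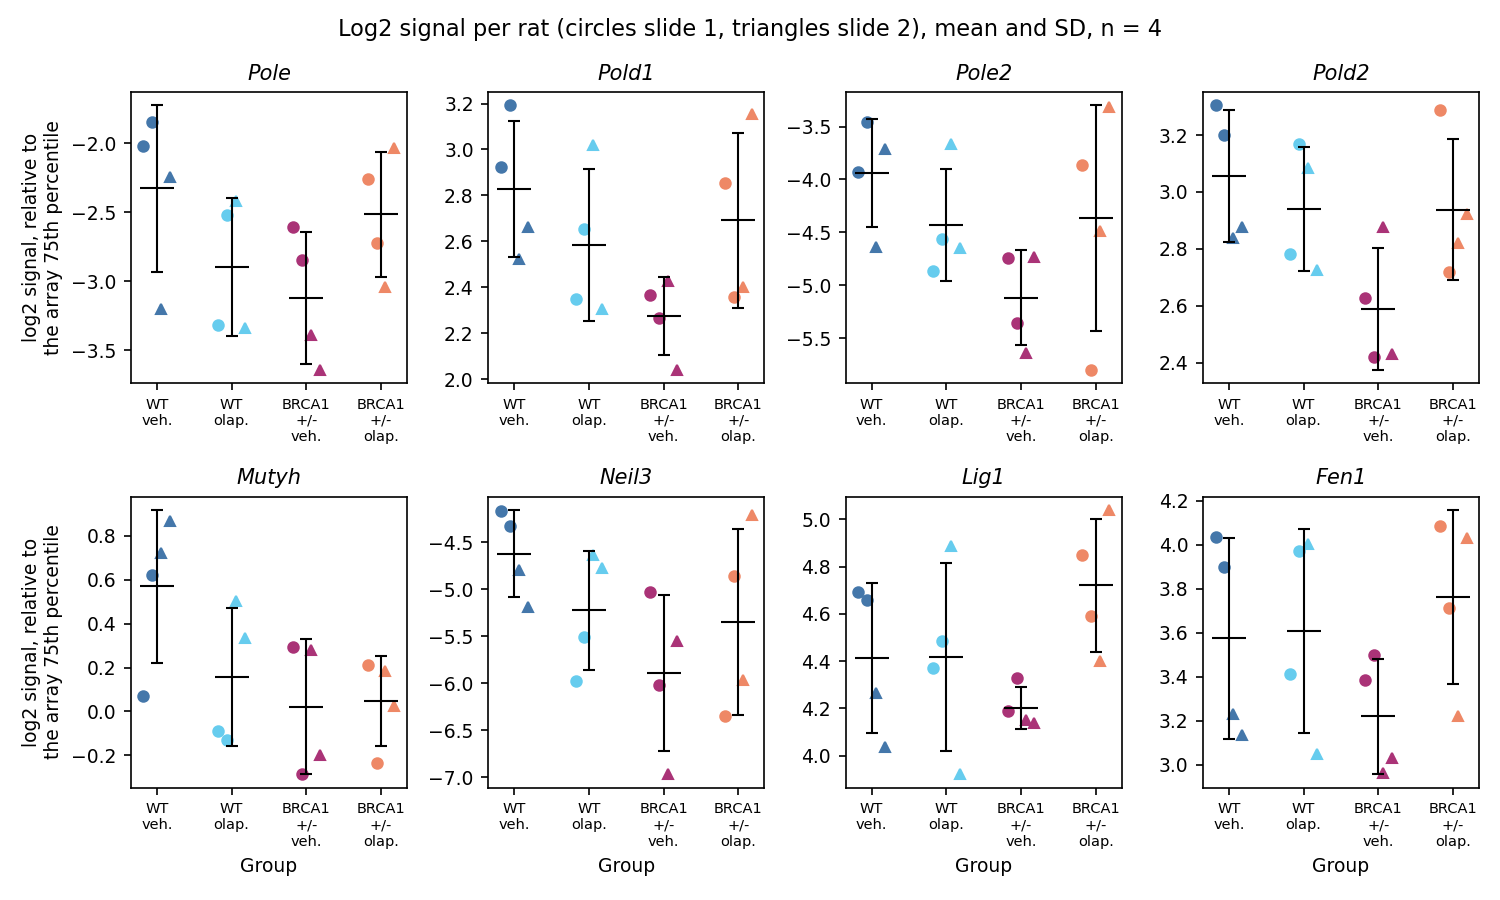
Log2 signal relative to the array's 75th percentile (vertical axis) for 8 repair genes in the 4 groups (horizontal axis), 1 point a rat, circles for slide 1 and triangles for slide 2, with the mean and SD as black bars (n = 4). Pold1 and Pole2 do not overlap between WT and BRCA1+/- vehicle rats, and Lig1 does not overlap between BRCA1+/- vehicle and BRCA1+/- olaparib rats.

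The other glycosylases showed small differences between genotypes with vehicle. Ogg1, which removes oxidised guanine, differed by -0.29, Nthl1, which removes oxidised pyrimidines, by -0.35, and Neil1, of similar substrates, by -0.17. Tdg and Mbd4, which act on thymine mispaired with guanine, differed by -0.15 and -0.02. Ung and Smug1, which remove uracil, differed by 0.21 and 0.02, and Mpg, which removes alkylated purines, by 0.25. A second Smug1 probe gave 0.35.

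The 6 genes of abasic site and end processing all had the lower value in BRCA1+/- vehicle ovaries, by -0.35 to -0.03 with a median of -0.31, and none had an unadjusted p under 0.05. They are the abasic endonucleases Apex1 and Apex2, the end-cleaning enzymes Aptx, Tdp1 and Tdp2, which take adenylate or trapped topoisomerase off DNA ends, and the end-binding factor Aplf. The chromatin members Hmgb1, an abundant DNA-bending protein, and Chd1l, a remodeller recruited by poly(ADP-ribose), differed by -0.26 and -0.37.

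The short-patch core had the median difference nearest 0 of the 6 role groups, -0.01. Xrcc1 differed by -0.02 (95% interval -0.35 to 0.31), Polb by -0.01 (-0.40 to 0.39) and Lig3 by 0.00 (-0.36 to 0.37). The other Lig3 probes gave 0.08, -0.20 and 0.15, and a second Polb probe gave -0.03.

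Olaparib in BRCA1+/- ovaries was set against vehicle in the same genotype. Of 30 members, 1 (3.33%) had an unadjusted p under 0.05, against 1.17% of all genes. It was Lig1, the ligase that joins Okazaki fragments and long repair patches. Lig1 was at 4.19, 4.33, 4.15 and 4.14 with vehicle and at 4.85, 4.59, 4.40 and 5.04 with olaparib, with no overlap (exact two-sided permutation p = 0.029). The difference was 0.52 ± 0.22 (95% interval 0.05 to 0.99; unadjusted p = 0.032 and adjusted p = 1.0 by limma), a 1.43-fold higher signal with olaparib. A second Lig1 probe gave 0.41, and the difference was 0.46 within slide 1 and 0.57 within slide 2. In these groups slide 1 holds the arrays of low oviduct score and slide 2 those of high score. The count of members was 0 without replicate 1 or 4 of either BRCA1+/- group, 3 without BRCA1+/- olaparib replicate 2, 2 without BRCA1+/- olaparib replicate 3 and 0 without the arrays of high oviduct score.

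Fen1, which cuts the displaced flap before Lig1 seals the strand, was at 3.39, 3.50, 2.96 and 3.03 with vehicle and at 4.09, 3.71, 3.22 and 4.03 with olaparib. The third olaparib rat lay within the vehicle range. The difference was 0.54 ± 0.28, next in order of p among the members, followed by Pold2 (0.35) and Pold1 (0.42). Pole differed by 0.61 and Pole2 by 0.75, or by 0.26 and 0.10 with normexp background correction. Over the 30 members the median difference was 0.10, against 0.02 over all genes, and 24 of 30 (80%) had the higher value with olaparib, as did 53.2% of all genes. In these 2 groups the arrays were also paired by replicate number, which fixes slide and row as well. Deviations from the group means were correlated in all 4 pairs. The arrays of slide 2 had the high oviduct scores in both groups, so pairing of rats and shared oviduct signal cannot be told apart. Lig1 was higher with olaparib by 0.66, 0.26, 0.25 and 0.90 in the pairs 1 to 4, Fen1 by 0.70, 0.21, 0.26 and 1.00 and Pole by 0.35, 0.12, 0.35 and 1.61, so that all 3 were higher in 4 of 4 pairs. With the replicate number as a block in these 8 arrays alone, a fit added after seeing the data with 3 residual degrees of freedom, 2 of 30 members, Lig1 and Fen1, had an unadjusted p under 0.05 (6.67%), against 6.3% of all genes. No gene was called in that fit, and the lowest adjusted p was 0.75 by limma.

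The same BRCA1+/- vehicle arrays serve as the reference here and as the BRCA1+/- side of the genotype comparison, so the low values of that group enter both.

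In WT ovaries, olaparib against vehicle gave 0 of 30 members at unadjusted p under 0.05, against 4.33% of all genes. The median was -0.14 over the members and -0.07 over all genes, and 22 of 30 members (73.3%) had the lower value with olaparib, as did 60.8% of all genes. Smallest in p were Mutyh (-0.42), Chd1l (-0.37), Pole (-0.57) and Apex1 (-0.25). Mutyh was at -0.09, -0.13, 0.51 and 0.34 with olaparib, and Chd1l at 0.37, 0.55, -0.04 and 0.52 with vehicle against 0.28, 0.18, -0.05 and -0.48 with olaparib, with overlap in both genes. The slides differed here. The median over the members was -0.26 within slide 1 and 0.05 within slide 2. Without WT vehicle replicate 3, the number at unadjusted p under 0.05 was 4 of 30, and without WT vehicle replicate 1 or WT olaparib replicate 3 it was 1.

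With olaparib, BRCA1+/- against WT ovaries gave 0 of 30 members at unadjusted p under 0.05, against 0.915% of all genes, with a median of 0.06 against 0.02. Apex1, the main abasic site endonuclease, had the smallest p (0.28 ± 0.17). Its values were 3.90, 4.42, 4.10 and 4.07 in WT and 4.67, 4.18, 4.22 and 4.56 in BRCA1+/- olaparib ovaries. The next was Mpg (0.26 ± 0.16), at 0.41, 0.63, 0.12 and 0.47 against 0.49, 0.71, 0.71 and 0.76. The ranges overlapped in both genes. Without WT olaparib replicate 2 the count was 1 of 30.

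The interaction asks whether the difference with olaparib was the same in both genotypes. Of 30 members, 1 had an unadjusted p under 0.05, against 3.44% of all genes. It was Pole, at 1.18 ± 0.49 (95% interval 0.13 to 2.23; unadjusted p = 0.030, adjusted p = 0.97 by limma). Pold1 (0.66), Pole2 (1.25) and Nthl1 (0.51) followed in order of p. With normexp background correction the Pole value was 0.62 and the Pole2 value 0.34. The median over the members was 0.32, against 0.08 over all genes. Leaving out 1 array at a time gave counts from 0 to 6 of 30, with 6 without WT vehicle replicate 3, 4 without WT olaparib replicate 3, 3 without BRCA1+/- olaparib replicate 2, 2 without BRCA1+/- olaparib replicate 3, and 0 without replicate 1 or 2 of WT vehicle, replicate 1 or 4 of WT olaparib, or replicate 4 of either BRCA1+/- group. Without the arrays of high oviduct score the count was 0.

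**Figure D3:**
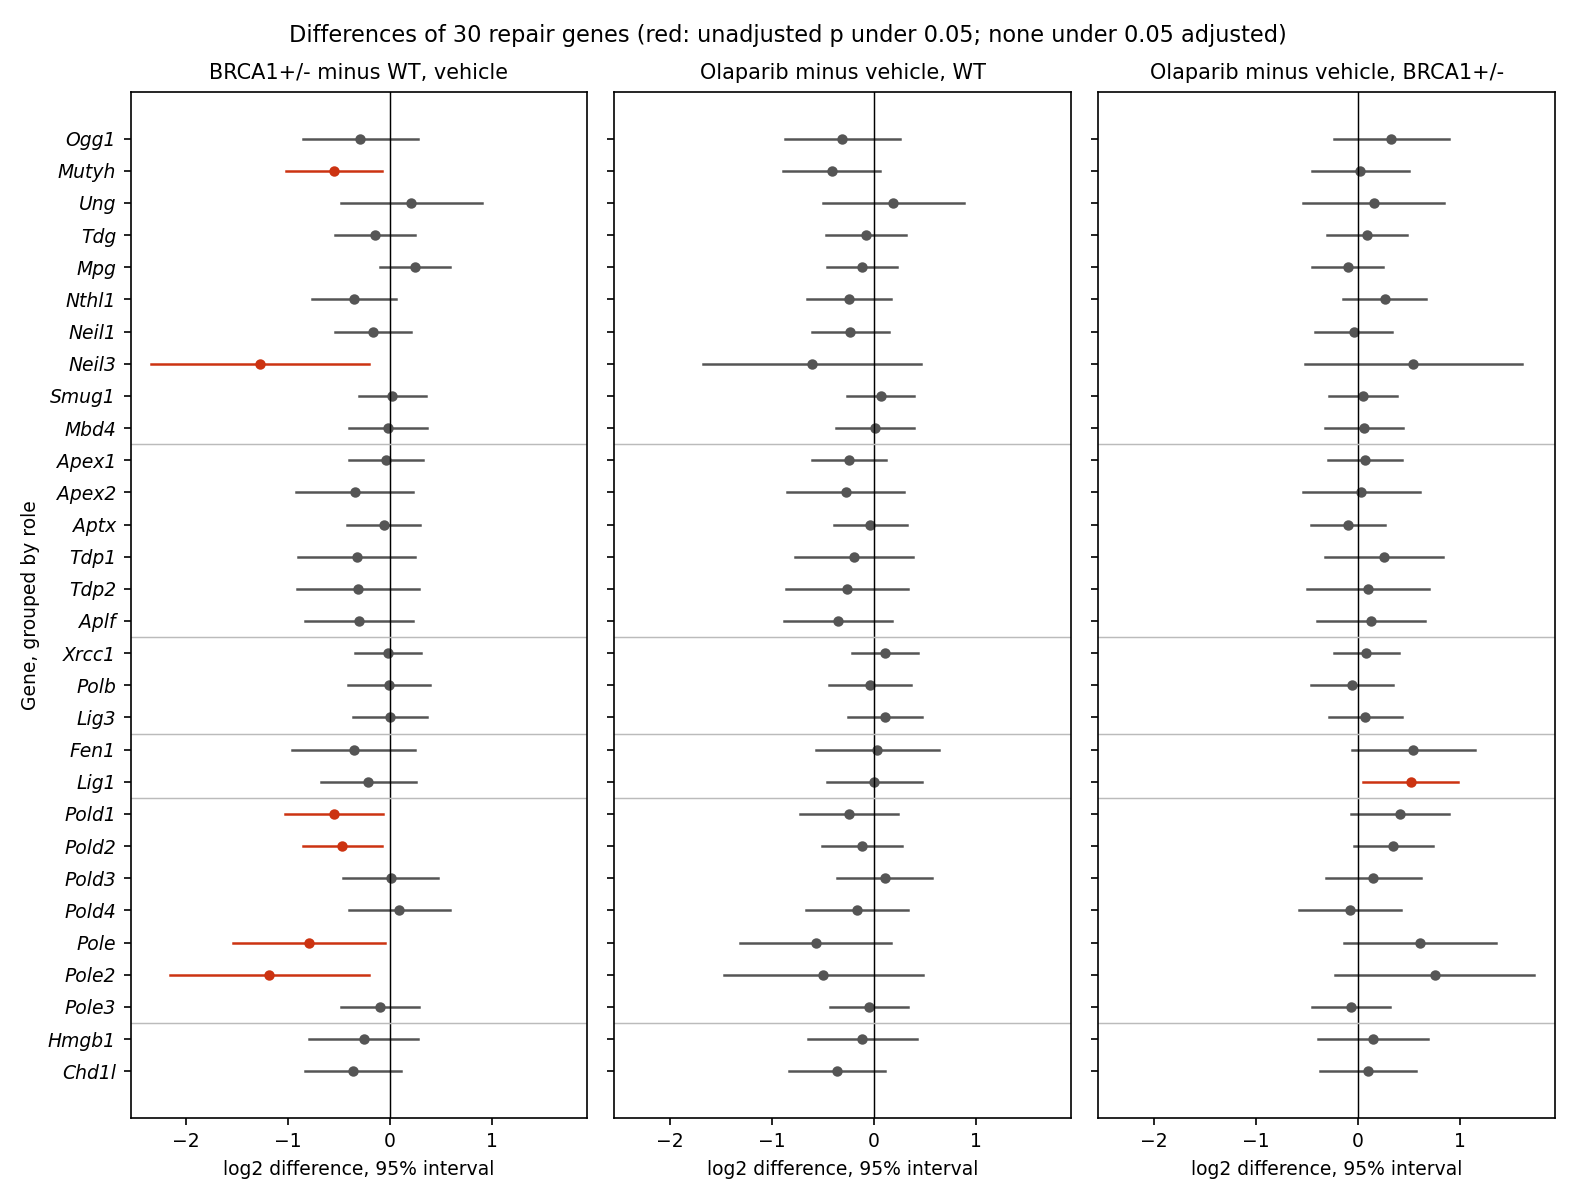
Differences in log2 signal (horizontal axis, with 95% intervals from limma) of the 30 tested repair genes (vertical axis, grouped by role), for genotype with vehicle and for olaparib in each genotype, 4 rats a group. Red marks an unadjusted p under 0.05, which 6, 0 and 1 genes have; no gene has an adjusted p under 0.05.

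The members were also set against proliferation. A proliferation score was taken on each array as the mean, over 32 genes of mitosis and replication that include no member, of the log2 signal minus the gene's mean. All 32 were tested and 31 were well above background on all 16 arrays. The score was 0.17 ± 0.52 in WT vehicle, -0.02 ± 0.32 in WT olaparib, -0.27 ± 0.37 in BRCA1+/- vehicle and 0.11 ± 0.42 in BRCA1+/- olaparib ovaries (SD, n = 4), with ranges that overlapped across all 4 groups. The BRCA1+/- vehicle group had the lowest mean score. With the score added to the fit as a covariate, chosen after seeing the data, 1 of 30 members, Mutyh, had an unadjusted p under 0.05 for genotype with vehicle, and the median difference was -0.09 in place of -0.24. Mutyh then differed by -0.59, Pole by -0.30, Pole2 by -0.77, Pold1 by -0.31 and Pold2 by -0.34. For Lig1 with olaparib in BRCA1+/- ovaries the difference was 0.33 in place of 0.52.

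The slope of each gene on the score was then fitted with the 4 group means kept in the model, so that it rests on rats within groups. In WT vehicle, WT olaparib and BRCA1+/- vehicle ovaries the rat of lowest score was also on the array of lowest 75th percentile (206, 241 and 202). In BRCA1+/- olaparib ovaries this did not hold, but the rat of highest score had the highest percentile (536). The part of array brightness in the slopes was not tested. In WT vehicle and BRCA1+/- vehicle ovaries every rat of slide 2 had a lower score than every rat of slide 1. In both olaparib groups the scores of the slides overlapped. Of 30 members, 3 (10%) were called, all with positive slopes, against 1.25% of all genes. In all, 10 of 30 (33.3%) had an unadjusted p under 0.05 with a positive slope, against 8.92% of all genes. The called members were Pole, with 1.13 ± 0.17 log2 units per unit of score (adjusted p = 0.0044 by limma), Fen1, with 0.82 ± 0.17 (adjusted p = 0.036), and Tdp1, with 0.78 ± 0.17 (adjusted p = 0.042). The other 7 were Ogg1 (0.71), Ung (0.71), Nthl1 (0.44), Neil3 (0.95), Lig1 (0.51), Pold1 (0.55) and Pole2 (0.94). The slopes of the dim genes Neil3 and Pole2 turned sign with normexp background correction (-0.21 and -0.07).

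Within each group the rats show the relation for Pole. In WT vehicle ovaries the scores were 0.54, 0.61, -0.52 and 0.06 for rats with Pole at -2.02, -1.85, -3.20 and -2.25. In WT olaparib ovaries they were -0.20, 0.09, 0.38 and -0.34, with Pole at -3.32, -2.52, -2.42 and -3.34. In both groups the order of the rats by score was their order by Pole. In BRCA1+/- vehicle ovaries the scores were 0.25, -0.27, -0.61 and -0.43, with Pole at -2.60, -2.85, -3.39 and -3.64, and the 2 lowest rats changed places. In BRCA1+/- olaparib ovaries they were 0.35, 0.13, -0.49 and 0.46, with Pole at -2.26, -2.73, -3.04 and -2.03, again in the same order.

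Fen1 was at 4.03, 3.90, 3.23 and 3.13 in WT vehicle, at 3.41, 3.97, 4.00 and 3.05 in WT olaparib, at 3.39, 3.50, 2.96 and 3.03 in BRCA1+/- vehicle and at 4.09, 3.71, 3.22 and 4.03 in BRCA1+/- olaparib ovaries. Tdp1 was at 0.46, 0.90, -0.47 and 0.48, at 0.04, 0.27, 0.53 and -0.27, at 0.12, 0.00, -0.09 and 0.02, and at 0.23, 0.18, -0.08 and 0.76 in the same groups. The rat of lowest score had the lowest Fen1 value in 3 of 4 groups, all but WT vehicle, and the lowest Tdp1 value in 4 of 4. Tdp1, the enzyme that frees DNA ends from trapped topoisomerase I, is no replication enzyme in the textbook account, unlike Pole and Fen1.

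Pole was called in all 16 fits that left out 1 array, with slopes of 1.07 to 1.21. Fen1 was called in 4 of 16, with adjusted p from 0.030 to 0.17, and Tdp1 in 2 of 16, with adjusted p from 0.037 to 0.30, so both lie close to the threshold. The number of members called was 1 in 12 of these fits, 2 without WT olaparib replicate 2 or BRCA1+/- vehicle replicate 2, and 3 without WT vehicle replicate 4 or BRCA1+/- vehicle replicate 1. The slopes were 1.16, 0.72 and 0.90 with the slide as a block, where only Pole was called (adjusted p = 0.019, 0.18 and 0.058). On the 10 arrays of low oviduct score they were 1.12, 0.75 and 0.92, and none of the 3 was called (adjusted p = 0.27, 0.37 and 0.30). With the score made of mitosis genes alone, the slopes were 0.93, 0.65 and 0.65, and of these only Pole was called (adjusted p = 0.038, 0.16 and 0.12). With normexp background correction the Pole slope was 0.41 and was not called (adjusted p = 0.30 by limma). The Fen1 slope was then 0.98 and was called (adjusted p = 0.016), and the Tdp1 slope was 0.72 and was not (adjusted p = 0.072). The second kept Pole probe had a slope of 1.35 and the third Pole probe, not kept, one of -0.54, and both of these probes are dim.

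The short-patch core stood flat against the score, as did some members of other roles, such as Smug1 (0.03), Neil1 (0.05) and Hmgb1 (-0.04). Xrcc1 had a slope of 0.00, with values from 3.24 to 3.75 over the 16 arrays, Polb one of 0.03, from 0.93 to 1.73, and Lig3 one of 0.08, from 1.82 to 2.53. The median slope was 0.67 over the long-patch pair Fen1 and Lig1, 0.29 over the 7 tested subunits of polymerases delta and epsilon, 0.26 over the 6 genes of abasic site and end processing, 0.24 over the 10 tested glycosylases and 0.03 over the short-patch core, against -0.01 over all genes. Within the polymerases, the small subunits Pold4 (-0.27) and Pole3 (-0.03) differed in sign from Pole, Pole2 and Pold1. With normexp background correction the slopes of Pole3 (0.06) and Pole2 (-0.07) turned sign. Differences between these role groups were not tested. The Polb value depends on the probe, since a second kept Polb probe, which crosses an exon junction, had a slope of -0.72. Over the arrays its correlation with the probe used was -0.33.

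**Figure D4:**
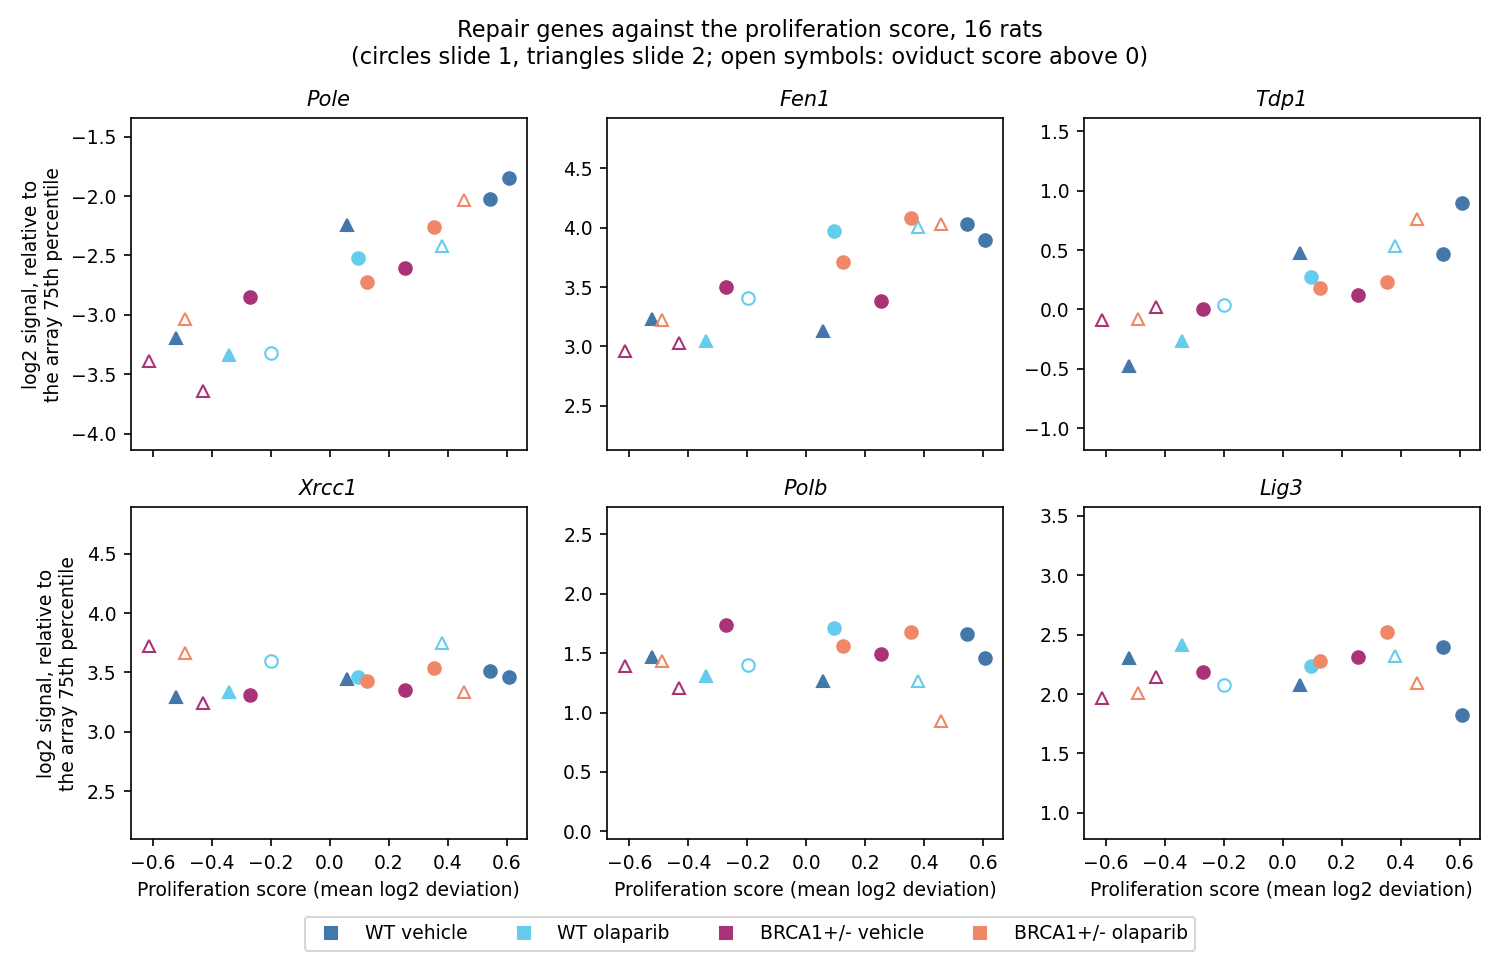
Log2 signal (vertical axes, each spanning the same number of log2 units) against the proliferation score (horizontal axis, mean log2 deviation) for 6 repair genes in 16 rats; colours mark the groups, circles slide 1, triangles slide 2, and open symbols the 6 arrays of high oviduct score. Pole, Fen1 and Tdp1 rise from left to right, with slopes of 1.13, 0.82 and 0.78, and Xrcc1, Polb and Lig3 have slopes near 0, of 0.00, 0.03 and 0.08. A second Polb probe, not shown, had a slope of -0.72.

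**Figure D5:**
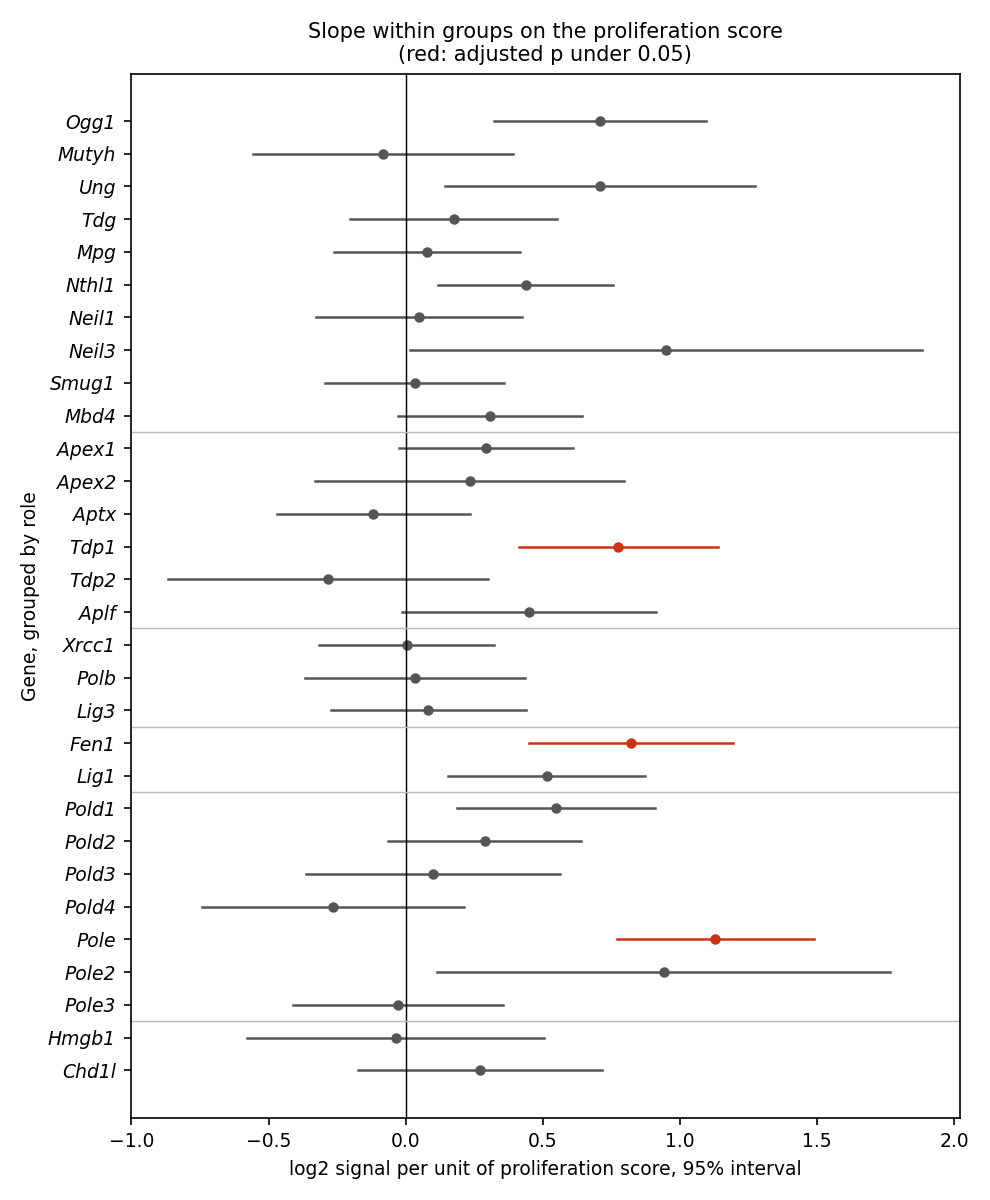
Slope on the proliferation score within groups (horizontal axis, log2 signal per unit of score, with 95% intervals) for the 30 tested repair genes (vertical axis, grouped by role). The 3 genes in red, Pole, Fen1 and Tdp1, had an adjusted p under 0.05.

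A list of 20 further genes of the same pathway, chosen by role, was set beside the members. None was called in the 5 comparisons. In the proliferation slope 7 of 20 (35%) were called, all positive, against 1.25% of all genes. They were Pcna, the sliding clamp (0.74), Rpa2 (0.82) and Rpa3 (0.71) of the single-strand binding complex, Rfc3 of the clamp loader (0.70), Dut, which removes dUTP from the nucleotide pool (1.09), Parp2 (0.82) and Hpf1, the cofactor that directs poly(ADP-ribose) to serines (0.63). Parp1, the main target of olaparib, had a slope of 0.22 and was not called. Rfc3 (-0.46, adjusted p = 0.037 by limma) and Rpa2 (-0.51, adjusted p = 0.041) were also called between the slides, with the lower value on slide 2. Dut (-0.61), Hpf1 (-0.34), Rpa3 (-0.32), Parp2 (-0.27) and Pcna (-0.19) had the lower value on slide 2 too, and were not called there. The slopes of these genes come from a fit without the slide, so a part of the slide in them is not removed. The score itself includes other replication genes.

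The slope on the oviduct score was called for 1 of 30 members (3.33%), against 12.3% of all genes. It was Pold3, a subunit of polymerase delta, with 0.12 ± 0.03 per unit of score (adjusted p = 0.023 by limma), called in 15 of 16 fits that left out 1 array. The number of members called was 0 without BRCA1+/- vehicle replicate 3, 2 without WT vehicle replicate 2 or WT olaparib replicate 4 and 3 without WT vehicle replicate 4. On the 6 arrays of high score Pold3 was at 1.28, 1.31, 1.45, 0.81, 1.21 and 1.28, and on the other 10 it ran from 0.67 to 1.26. The Pold3 call was lost without a filter on dim probes (0.13, adjusted p = 0.058), with the mean of its probes (0.11, adjusted p = 0.060) and without the arrays of high score (0.38, adjusted p = 1.0). A second Pold3 probe had a slope of 0.09. Aplf had the largest negative slope (-0.12, adjusted p = 0.053). The part of oviduct tissue in the Pold3 slope was not tested.

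Between the slides 0 of 30 members were called, against 7.91% of all genes, and 4 (13.3%) had an unadjusted p under 0.05, against 23.9% of all genes. Aplf (-0.44, adjusted p = 0.056), Polb (-0.30, adjusted p = 0.094) and Fen1 (-0.42, adjusted p = 0.15) had the lower value on slide 2, and Tdp2 (0.50, adjusted p = 0.058) the higher. The count called was 1 without WT vehicle replicate 1, 2 or 4, WT olaparib replicate 1 or 3 or BRCA1+/- vehicle replicate 3.

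Members differed widely in how much they varied between rats. The SD of log2 signal over the 16 arrays was 0.15 for Xrcc1, 0.16 for Smug1 and 0.19 for Aptx and Lig3 at the low end, and 0.56 for Pole, 0.75 for Pole2 and 0.82 for Neil3 at the high end, where Pole2 and Neil3 are dim. More than 1 probe was present for 12 members. Their slopes on the proliferation score had the same sign over all probes in 6 members, Mutyh, Mbd4, Aplf, Lig1, Pold3 and Pole3. They were of mixed sign in the other 6, Smug1, Polb, Lig3, Pole, Hmgb1 and Chd1l. Chd1l had 0.27 and -0.26, Smug1 0.03 and -0.16, and Lig3, with 4 probes, 0.08 and 0.17 against -0.03 and -0.01. Hmgb1 had 9 probes, most of them overlapping at 1 site of a gene with many near-identical copies, and its values are uncertain for that reason.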

How the data were processed

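Single-colour Agilent whole-genome rat arrays measured RNA of 16 ovaries. Per the submitters' processing notes, spots were read by the authors with Agilent Feature Extraction 10.7. Per the file headers, the authors' processed signal is a background-subtracted intensity, not scaled between arrays. The deposited log2 value table differs from the log2 of that signal by 1 constant an array, which lies -0.0151 to -0.0098 from the log2 75th percentile used here; how the authors set it is not given in the sources used here. Here, flagged outlier spots were dropped, spots of a probe averaged, and log2 processed signals reduced by the array's 75th percentile over 45598 non-control probes. A probe was kept if well above background on at least 3 of 4 arrays of at least 1 group (26820 probes). A gene with several probes is represented by the one of highest mean. Names came from the files and the RefSeq table of build GRCr8.

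A mean for each group was fitted in R 4.3.3 by limma 3.58.1 (12 residual degrees of freedom). Slides and scores entered as covariates. Single members were also tested by exact two-sided permutation. The number of arrays limits the precision. The script for the fits was tested on simulated data. The members and lists were chosen with earlier results of these data known. Members named in each fit were the 4 of smallest p in each comparison and 4 in each direction in the slide and score fits, and every other member was named by role. Of 24 pairs of arrays with 1 number, 13 had deviations correlated above 0.1 (-0.442 to 0.714). All 4 pairs did so between BRCA1+/- vehicle and BRCA1+/- olaparib (0.392 to 0.714), and not all 4 in the other comparisons. In both BRCA1+/- groups slide and oviduct score go with the replicate number, so the correlation does not show that rats were paired. Alternatives were the deposited log2 values, quantile normalization, normexp correction (offset 50), other probe filters, the mean of all probes, blocks, and arrays left out.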

Additional observations from a re-analysis of the deposited data

Results flagged for a closer look

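In 5 of the 120 sets of 4 arrays checked, 1 rat's log2 signal lay far from the other 3 of its group, by Dixon's 95% criterion, which chance alone meets in about 1 of 20 groups. Aplf was at 0.94 in WT vehicle replicate 2, against 0.35 to 0.36 in the other WT vehicle rats, and at 0.53 in WT olaparib replicate 2, against 0.00 to 0.04. Pold3 was at 1.45 in BRCA1+/- vehicle replicate 3, against 0.73 to 0.81, and this array had the highest oviduct score of all 16, 3.41. Smug1 was at 2.33 in WT vehicle replicate 2, against 2.56 to 2.58, and Nthl1 was at 0.60 in WT olaparib replicate 4, against 1.05 to 1.13.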

How the results depend on the processing

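Genes called in the 5 comparisons stayed at 0 under the alternatives, except 1 gene for olaparib in BRCA1+/- ovaries without WT olaparib replicate 4 (range 0 to 1), and members called stayed at 0 in all of them. Leaving out 1 array gave 0 to 4 members at unadjusted p under 0.05 for olaparib in WT, 0 to 3 for olaparib in BRCA1+/-, 0 to 9 for genotype with vehicle, 0 to 1 for genotype with olaparib and 0 to 6 for the interaction, and 1 to 3 members called on the proliferation slope, 0 to 3 on the oviduct slope and 0 to 1 between slides.

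Members at unadjusted p under 0.05 for olaparib in BRCA1+/- ovaries were 0 with quantile normalization, 2 with the slide as a block, 0 without the arrays of high oviduct score and 0 with the proliferation score as a covariate, a setting chosen after seeing the data. The last 2 settings gave 0 and 1 for genotype with vehicle and 0 and 0 for the interaction. With that covariate the median was -0.089 for genotype with vehicle and 0.17 for the interaction, and the interaction of the member score (the mean centred value of the 30 members) was 0.17. The member score difference for olaparib in WT ovaries was -0.33 within slide 1 and 0.0029 within slide 2, where the median was 0.053.

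Members called on the proliferation slope were 1 with normexp, which was Fen1. They were also 1 without a probe filter, with the slide as a block, with the replicate block and with mitosis genes alone, and 0 without the arrays of high oviduct score. Oviduct slope calls were 4 with quantile normalization, 2 with normexp, 0 without a filter, 2 with probes above background on all arrays, 0 with the mean of probes and 0 without the high arrays. Slide calls were 1 with normexp and 2 with the all-array filter.

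Among the members named in each fit, single values that turned sign were Polb between slides (0.20 with the mean of probes), the proliferation slopes of Tdp2 and Mutyh (0.11 and 0.17 with the slide as a block, 0.099 and 0.22 with the replicate block), that of Mutyh without WT vehicle replicate 1 (0.039, range -0.21 to 0.039 over single arrays left out) and of Aptx without WT vehicle replicate 3 (0.00042, range -0.19 to 0.00042), and the oviduct slopes of Ung, Aplf, Tdg and Neil1 without the high arrays (-0.29, 0.42, 0.19 and 0.081), none of them called with all arrays. Of the members not named there, Neil3 and Pole2 turned sign in the proliferation slope with normexp. So did Apex2 (-0.20), Neil1 (-0.12), Pole3 (0.06) and Hmgb1 (0.07). The replicate block over all arrays changed no count in the 5 comparisons, and in the BRCA1+/- groups alone, added after seeing the data, it gave 2 members at unadjusted p under 0.05 for olaparib. The causes were not tested. Dim signals limit Neil3 and Pole2. The Pole values also fell with normexp, its proliferation slope from 1.13 to 0.41 and its interaction from 1.18 to 0.62.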
